A study of Mus musculus with 18 samples.

Results

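Regulatory T cells (Treg) sorted by Timer fluorescence as persistent Foxp3 expressors were compared with Treg sorted as PAt or Arrested. The study reads these gates as sustained, less frequent and arrested Foxp3 transcription, in that order. The rate of transcription was not measured here. The comparison set the 6 libraries of the persistent expressors, Pers1 and Pers2, against the 6 libraries of PAt and Arrested cells, which are 12 of the 18 libraries of the series. All mice were female and of the strain labelled C57/BL6 Foxp3Timer Foxp3-IRES-GFP, so every group, controls included, carried the Foxp3-Tocky reporter, in which Foxp3 drives a fluorescent Timer protein, together with a GFP reporter of Foxp3. The study's methods put the animals at 5 to 10 weeks of age. Skin of the abdomen was painted with 3% oxazolone, a hapten that causes contact hypersensitivity, and inguinal and axillary lymph nodes were taken on day 5, so no unsensitised mouse is in the data. CD4+ cells were sorted by GFP and Timer. Pers1 cells were Blue-intermediate and Red-low, Pers2 cells were Blue-high and Red-high, PAt cells were Blue-low and Red-high, and Arrested cells were Blue-negative and Red-intermediate. Tnaive and Teff cells, which are Timer-negative CD44lo and CD44hi CD4+ cells, entered the model but not the contrast. Each population had 3 replicates, and each replicate was a pool of 3 mice, so p-values measure the spread between pools. The series design says that the populations were sorted from the same mice, so the 6 libraries of a side are not 6 independent pools. The main fit had no block for this and treated the libraries as independent in its SEs and p-values.

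Newly made Timer protein is blue and turns into a long-lived red form. Blue fluorescence therefore follows current Foxp3 transcription, and Red fluorescence its history. In Treg, Foxp3 is the transcription factor that maintains suppressive function. Resting Treg recirculate through lymph nodes and share survival and quiescence genes with naive T cells, whereas effector Treg respond to antigen, carry receptors for inflamed tissue and hold high levels of inhibitory receptors and IL-10.

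The values are log2 of normalised counts as deposited, in the form of a regularised log transform, and the text gives them as log2 levels. A difference is the mean of Pers1 and Pers2 minus the mean of PAt and Arrested (log2 fold change ± SE), fitted by limma to the 18 libraries. "Higher" and "lower" are used only where the p adjusted by Benjamini-Hochberg was below 0.05 and the fold change passed 1 in either direction on the log2 scale, and such genes are called. Read counts were not analysed here, so depth and counting error are unknown, and the transform shrinks differences of thinly read genes. Within a population, libraries correlated at 0.99603 to 0.99876 across genes. In sorted bulk populations, fewer cells of a type and less RNA per cell cannot be told apart.

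The sort was checked against defining markers. Foxp3 stood between 14.56 and 14.85 in the 6 persistent libraries and between 14.36 and 14.65 in the 6 PAt and Arrested libraries, against means of 11.34 in Tnaive and 10.54 in Teff cells. Its difference was 0.24 ± 0.05 (adjusted p = 0.000139, limma), and the groups overlapped. Cd4 and Cd3e differed by 0.15 and 0.17, and none of the 12 CD4 T cell markers was called. Without the fold threshold, 9 of the 12 passed upward (75%, against 35.9% of all tested genes) and 2 downward. Their summed back-transformed level was 213500 to 222200 in persistent libraries and 178900 to 199700 in PAt and Arrested libraries, without overlap. The part of this shift in the other results was not tested. Between the gates, Foxp3 transcript stayed under the fold threshold. The genes called below were selected for passing it, so their larger differences are no separate result. Ikzf2 (0.42), Nrp1 (0.02) and Tnfrsf18 (0.33), markers of Treg, also stayed under the threshold.

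Of 13190 tested genes, 990 were called, or 7.51%. Of these, 625 (4.74%) were higher in the persistent populations and 365 (2.77%) were lower. These shares are the background for the counts of each list below. Genes of the cell cycle, which code for DNA replication and mitosis, supplied 198 of the higher genes and 1 of the lower ones. Outside the cell cycle, 427 genes were higher and 364 were lower, and these are described here. Libraries of the 2 sides overlapped in 1 of the higher and 9 of the lower genes. Over all tested genes, the 6 persistent libraries lay wholly above the other 6 in 24% and wholly below them in 21.8%. All 4 pairs of populations gave the same call for 476 of the higher and 206 of the lower genes.

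The highest fold change belonged to Gzmb, which codes for granzyme B, a serine protease of cytotoxic granules. Gzmb stood at 12.44, 12.41 and 12.78 in Pers1 and at 13.11, 13.06 and 13.52 in Pers2, against 8.25, 7.99 and 7.86 in PAt and 7.08, 6.87 and 7.60 in Arrested cells. The persistent libraries lay more than 4 log2 units above the others, and the fold change was 5.28 ± 0.12 (adjusted p = 2.21e-18, limma), or 38.9-fold. At the other end stood Igfbp4, which codes for a binding protein of insulin-like growth factors and is a known transcript of naive T cells. Igfbp4 was at 8.38 to 9.41 (median 8.87) in the persistent libraries and at 12.44 to 13.16 (median 12.86) in PAt and Arrested libraries. It fell by 3.99 on the log2 scale, with an SE of 0.09, or 15.9-fold.

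Promoter sequences are shown for 4 genes of different roles that were higher and whose windows hold the same short motif, and for Igfbp4, the lowest fold change, whose window does not. The motif is that of the AP-1 family (TGANTCA, searched on both strands). Each run is the 250 bases before the start site in RefSeq on GRCm38.p6, 5′ to 3′ on the gene's strand, with motif matches in capitals. Prdm1 codes for the transcription factor Blimp-1, Havcr2 for the inhibitory receptor TIM-3 and Ccr3 for an eotaxin receptor.
Gzmb, minus strand, chr14:56262335-56262584: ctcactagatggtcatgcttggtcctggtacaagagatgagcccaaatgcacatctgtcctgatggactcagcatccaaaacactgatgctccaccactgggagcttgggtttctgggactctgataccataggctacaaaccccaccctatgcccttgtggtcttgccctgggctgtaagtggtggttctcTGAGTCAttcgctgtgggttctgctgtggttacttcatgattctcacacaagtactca
Prdm1, minus strand, chr10:44458749-44458998: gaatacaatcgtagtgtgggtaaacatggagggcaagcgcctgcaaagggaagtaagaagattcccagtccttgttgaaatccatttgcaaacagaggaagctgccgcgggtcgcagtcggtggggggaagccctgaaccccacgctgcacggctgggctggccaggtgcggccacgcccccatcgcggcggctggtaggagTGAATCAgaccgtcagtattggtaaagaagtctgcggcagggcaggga
Havcr2, plus strand, chr11:46454681-46454930: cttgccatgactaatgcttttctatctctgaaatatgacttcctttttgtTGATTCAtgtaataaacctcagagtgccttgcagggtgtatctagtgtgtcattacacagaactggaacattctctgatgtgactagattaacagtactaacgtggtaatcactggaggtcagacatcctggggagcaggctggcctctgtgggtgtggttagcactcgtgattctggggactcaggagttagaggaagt
Ccr3, plus strand, chr9:124021721-124021970: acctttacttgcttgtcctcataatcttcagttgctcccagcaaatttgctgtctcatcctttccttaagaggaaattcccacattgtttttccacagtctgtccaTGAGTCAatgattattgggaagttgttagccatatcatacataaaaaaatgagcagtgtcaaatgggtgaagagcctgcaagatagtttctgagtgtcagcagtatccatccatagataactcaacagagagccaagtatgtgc
Igfbp4, plus strand, chr11:99040994-99041243: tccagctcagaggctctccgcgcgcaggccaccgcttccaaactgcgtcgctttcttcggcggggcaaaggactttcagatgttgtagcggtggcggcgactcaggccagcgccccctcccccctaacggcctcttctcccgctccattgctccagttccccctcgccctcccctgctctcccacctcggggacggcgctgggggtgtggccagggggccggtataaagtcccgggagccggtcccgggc

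The match lies 58 to 52 bases before the start in Gzmb, 48 to 42 in Prdm1, 200 to 194 in Havcr2 and 144 to 138 in Ccr3. Over promoters of the same length, the motif was present in 534 of 12578 promoters of tested genes (4.25%), in 41 of 549 promoters of higher genes (7.47%) and in 20 of 365 promoters of lower genes (5.48%). A gene can have several promoters in these counts, which leave out chromosome 18. The E2F motif (TTTNGCGC), a known element of cell cycle promoters, was in 1.96% of all promoters, 4.37% of those of higher genes and 0.548% of those of lower genes. The other motifs searched gave shares, in the same order, of 2.7%, 2.55% and 4.93% for an interferon regulatory factor motif, 0.771%, 0.364% and 0.822% for a T-box motif and 2.59%, 2.55% and 1.1% for the cyclic AMP response element. A match is a run of letters and no measurement of binding.

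Receptors that guide T cells to tissue differed by more than any other list outside the cell cycle, by the median of the members. Of 18 genes for chemokine receptors of inflamed tissue and for enzymes of selectin ligands, 10 were higher and 1 was lower, with a median log2 fold change of 1.56 against -0.01 over all tested genes and against 4.74% of genes higher. Ccr2, a receptor for inflammatory monocyte chemoattractants, was at 13.86, 13.90 and 13.91 in Pers1 and at 13.95, 13.80 and 14.16 in Pers2 libraries. In PAt cells it was at 9.62, 9.73 and 9.66 and in Arrested cells at 9.84, 9.70 and 10.02, so that no persistent library came near the others (4.17 ± 0.09, 18-fold).

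Receptors known for homing to skin followed. Ccr4 was at 13.31 to 13.80 in the persistent libraries and at 10.54 to 11.21 in the others (2.71). Ccr10 was at 8.71 to 9.46 against 5.63 to 6.24 (3.12), with a mean of 9.46 in Teff cells. Fut7 (2.17) and Gcnt1 (1.91), enzymes that build selectin ligands, were also higher, and so was Ccr8 (1.22). Ccr10 lies at chr11:101172997-101175443 on GRCm38, next to Plekhh3 (2.30) and inside the span of Cntnap1 (2.64), which lies on the opposite strand. Both neighbours were higher too. Ccr10 shares no exon bases with either in the gene models used, and the counting of strands is not given in the sources used here.

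Receptors of type 1 inflammation and of eosinophil chemokines were higher as well. Cxcr3, whose ligands are induced by interferon gamma, was at 11.81 to 12.11 against 9.31 to 9.94 (2.25). Cxcr6, a receptor for CXCL16, was at 10.21 to 10.64 against 7.55 to 8.48 (2.47). Ccr3 was at 8.90 to 9.24 in persistent libraries, above every PAt and Arrested library (5.90 to 6.76, 2.81) and far above Teff cells (mean 4.79). Values of Ccr6 (-0.47) and Cx3cr1 (0.11) did not reach the threshold.

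Ccr9, the receptor that directs T cells to the small intestine, went the other way. It was at 6.39, 6.21 and 6.02 in Pers1 and 5.71, 5.97 and 5.79 in Pers2, and at 8.28, 8.36 and 8.12 in PAt and 7.96, 7.99 and 8.04 in Arrested cells. All persistent libraries were lower, with a fold change of -2.11 ± 0.11. Ccr9 starts at position 123678439 of chromosome 9 on GRCm38, in the chemokine receptor cluster that also holds Xcr1 (0.44), Ccr1 (0.93), Ccr3 and Ccr2, which ends at 124113557. Within 1 cluster the differences therefore ranged from -2.11 to 4.17.

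**Figure D1:**
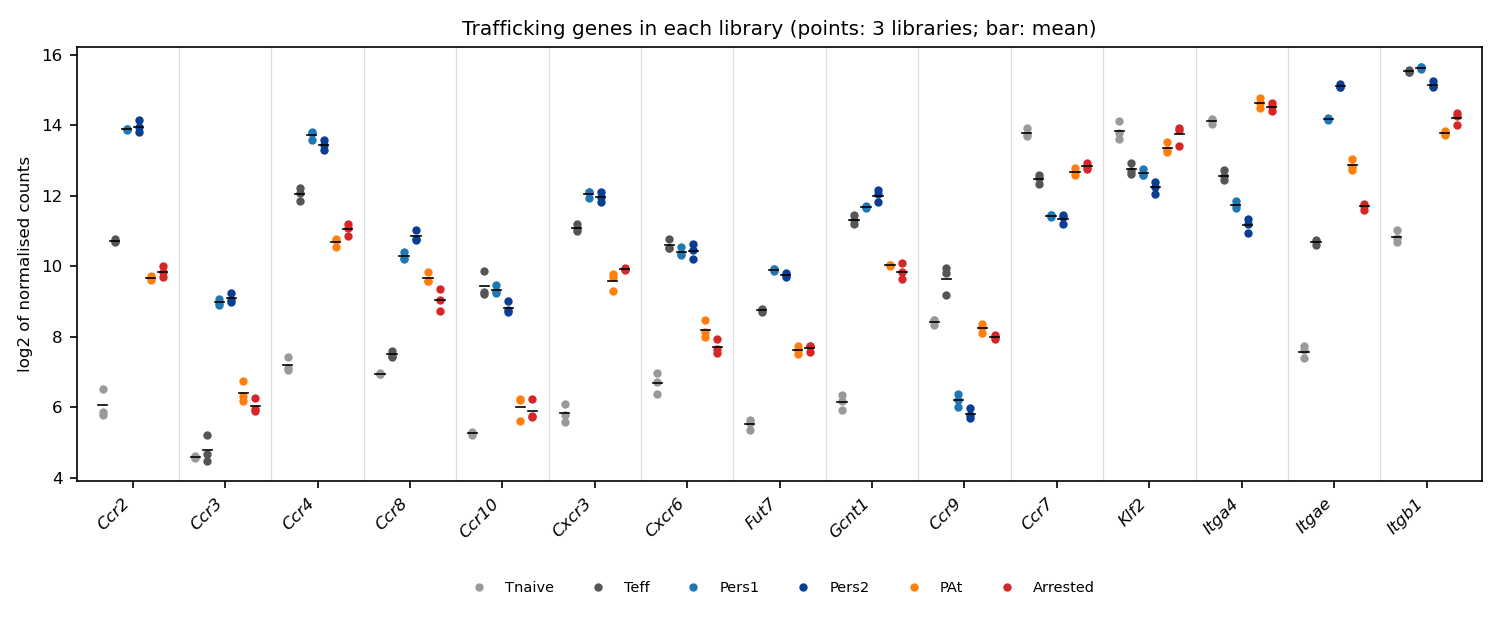
Log2 level (y axis, log2 of normalised counts) of 15 trafficking genes (x axis) in each of the 18 libraries, coloured by population, with a bar at the population mean. Pers1 and Pers2 libraries are above PAt and Arrested libraries for Ccr2 to Gcnt1, Itgae and Itgb1 and below them for Ccr9, Ccr7, Klf2 and Itga4.

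Of 15 genes of lymph node entry, retention and egress, 1 was higher and 3 were lower (median -0.19), and 1 of the 3 was Itga4, described with the integrins. Ccr7, the receptor that brings T cells into lymph nodes, was at 11.21 to 11.47 in persistent libraries and at 12.60 to 12.94 in PAt and Arrested libraries (-1.37), and Tnaive cells stood at a mean of 13.80. Klf2, a factor that maintains the lymph node homing programme, was lower by the same pattern (-1.11). S1pr1, the egress receptor, had a difference of -0.62 and did not pass. Gpr183, the oxysterol receptor that positions cells at the edge of follicles, was higher (1.16).

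Integrin subunits changed in both directions. Of 20 subunits, 4 were higher and 3 lower (median 0.07). Itga4, the alpha-4 chain that pairs with beta-1 or beta-7 to bind VCAM-1 and MAdCAM-1, was at 11.74, 11.87 and 11.65 in Pers1, 10.94, 11.36 and 11.21 in Pers2 cells, 14.64, 14.78 and 14.51 in PAt and 14.41, 14.54 and 14.63 in Arrested cells. The persistent libraries were lower in each pair (-2.89, -2.77, -3.48 and -3.36), and the fold change was -3.12 ± 0.07 (8.72-fold). Cerkl, which overlaps Itga4 by 127 bp of exon on the opposite strand, was also lower (-2.47), and the reads of the overlap cannot be told apart without the strand setting.

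Its partner Itgb1 (1.40) was higher, and Itgb7 (0.23) did not pass. Itgae, the alpha-E chain that binds E-cadherin on epithelium, was at 14.15 to 14.21 in Pers1 and at 15.08 to 15.17 in Pers2, against 12.73 to 13.06 in PAt and 11.61 to 11.78 in Arrested cells (2.36). For Itgae the Red-high population of each side stood above the other, so that its difference ranged from 1.31 for Pers1 against PAt to 3.41 for Pers2 against Arrested cells. Itga2 (2.21), a collagen receptor chain, and Itgam (2.05), the alpha-M chain, were higher. Itgam shares 70% of its exon bases with a second gene model on the same strand. Itga5 (-1.49), the fibronectin receptor chain, and Itga2b (-1.06) were lower.

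Of 17 mediators of suppression measured, 7 were higher and none was lower (median 0.93), and Gzmb, Ctla4 and Lag3 are among them. Il10, the gene of an anti-inflammatory cytokine, was at 8.71, 8.51 and 8.50 in Pers1 and 9.41, 9.25 and 8.91 in Pers2. It was at 7.08, 6.94 and 6.56 in PAt and 6.68, 6.04 and 6.44 in Arrested cells, and the groups did not overlap (2.26 ± 0.13). Lgals3 (3.64) and Lgals1 (2.22), which code for galectins, and Fgl2 (1.97), a secreted suppressive factor, were higher as well. Lgals1 was at 14.24 to 14.40 in Pers1 and 13.66 to 13.88 in Pers2, against 11.72 to 11.96 in the other populations. Tgfb1 (0.18) and the adenosine-pathway ectoenzymes Entpd1 (0.83) and Nt5e (0.03) did not pass, and Ebi3 (0.95), which codes for a subunit of IL-35, had overlapping groups.

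Of 15 cytotoxic granule genes, 3 were higher and 1 was lower (median 0.23). Gzmc was higher (1.54), at 7.11 to 7.87 against 5.62 to 6.20. Gzmb and Gzmc are close relatives in 1 cluster on chromosome 14, so that shared reads make the lower of them uncertain. Srgn, the proteoglycan core of the granule, was higher (1.41). Prf1, the pore-forming perforin, was at 7.33 to 7.74 in persistent libraries and at 7.45 to 8.12 in the others (-0.25), and Nkg7 (0.29) and Gzma (0.46) did not pass either. Ctsw, a cathepsin of cytotoxic cells, was lower (-1.85), at 9.55 to 10.41 against 11.49 to 12.16.

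Checkpoint and costimulatory receptors of the CD28 and related families were higher in 7 of 21 cases and lower in 1 (median 0.26). Havcr2 was at 9.72, 9.73 and 9.68 in Pers1, 10.34, 10.11 and 10.44 in Pers2 cells, 6.36, 5.92 and 6.39 in PAt and 5.72, 5.87 and 6.26 in Arrested cells. No library overlapped, and the difference was 3.92 ± 0.11 (15.1-fold). Icos, a costimulator of effector Treg, was at 15.39 to 15.75 against 12.91 to 13.17 (2.48).

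Several other inhibitory receptors moved with them. Tigit was at 12.65 to 12.74 in Pers1 and 13.53 to 13.65 in Pers2 and at 10.74 to 11.24 in the others (2.09). Lag3 (1.79), Ctla4 (1.69), Lair1 (1.15) and Cd200r1 (1.04) were higher as well. Cd96, which shares a ligand with Tigit, was lower (-1.09), with a median of 11.84 against 12.94. Cd28 itself had a difference of 0.70. Of the 7 higher genes of this list, all but Icos code for inhibitory receptors, which also make up most of the list. Of 13 inhibitory receptors tested, 6 were higher and 1 was lower, and of 8 costimulators 1 was higher. Pdcd1 (0.16), which codes for PD-1, and Btla (0.02) had overlapping groups, and Cd160 (-0.88) did not pass.

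Among 17 receptors of the TNF family, 2 were higher and 1 was lower (median 0.03). Tnfrsf1b, the TNFR2 receptor that supports Treg proliferation, was at 14.60 to 15.14 against 12.94 to 13.53 (1.60), and Tnfrsf8, which codes for CD30, was higher (1.20). Tnfsf8, the ligand of CD30, fell in the same libraries, from 10.56 to 10.88 in PAt and Arrested to 7.98 to 8.43 in persistent cells (-2.45). Tnfrsf25 was lower (-1.20). Tnfrsf4, or OX40, was at 13.23 to 13.50 in Pers1, 13.80 to 13.88 in Pers2, 12.85 to 12.99 in PAt and 12.24 to 12.54 in Arrested cells. Its groups did not overlap, yet the difference of 0.93 was under the threshold. Tnfrsf9 (0.80) had overlapping groups.

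**Figure D2:**
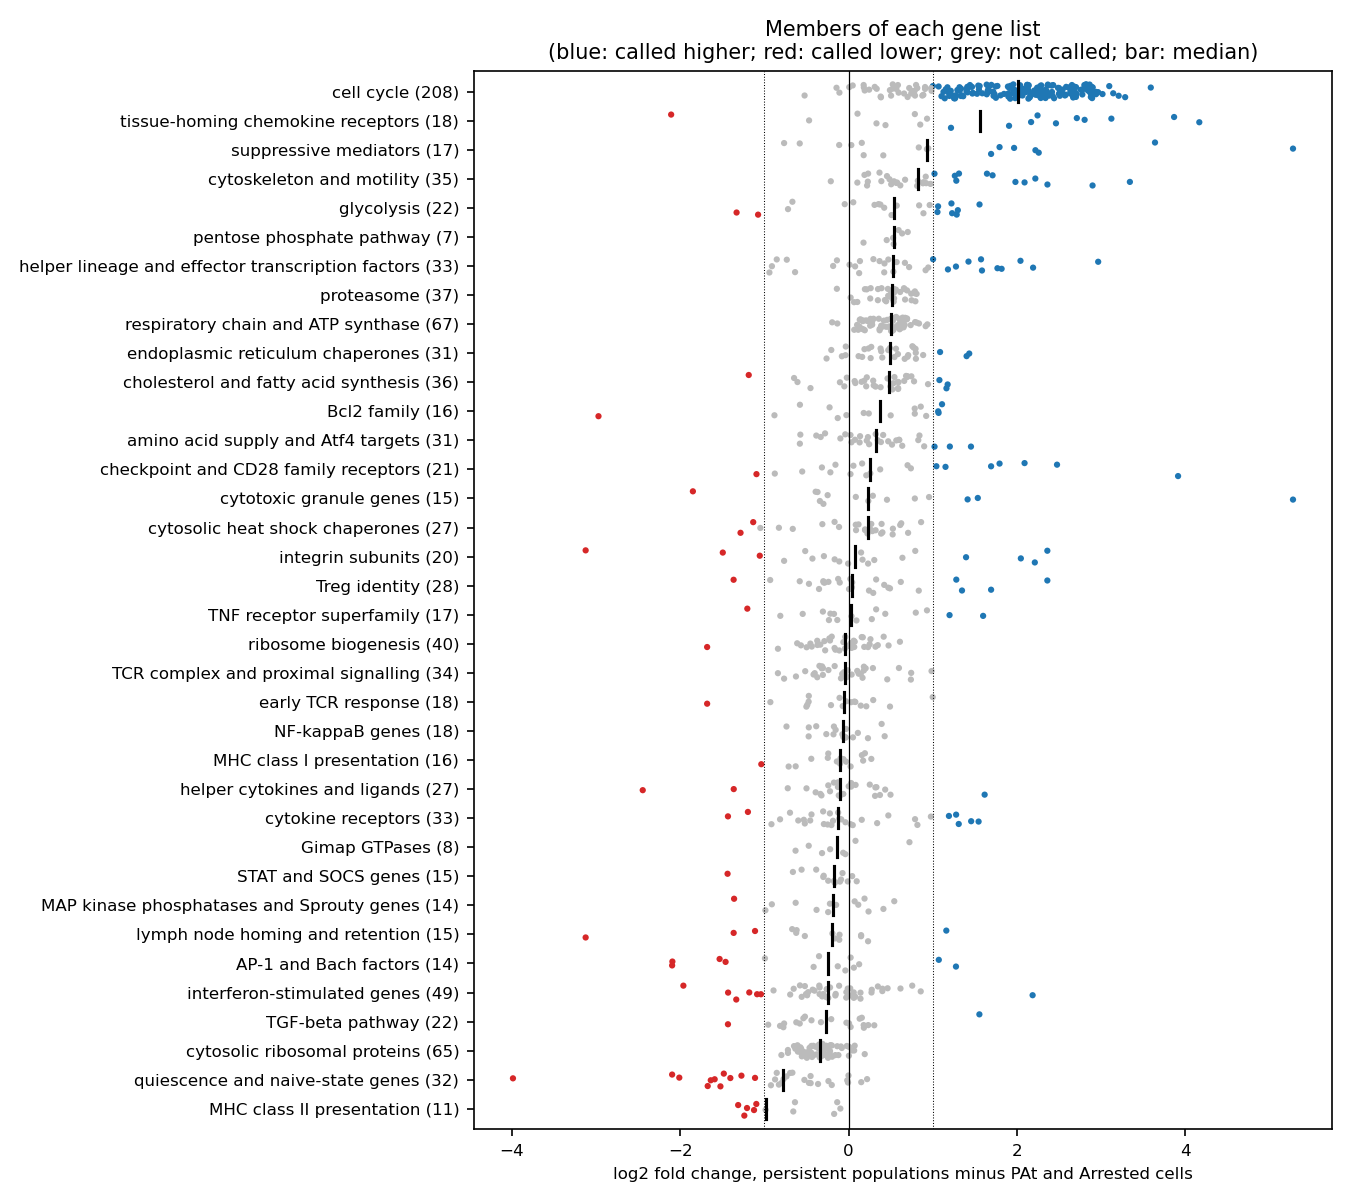
Log2 fold change of persistent populations minus PAt and Arrested cells (x axis) for each tested member of the gene lists other than cell type markers (y axis, number of tested members in brackets). Points are genes, blue for higher, red for lower and grey for not called, the bar is the list's median and dotted lines mark the fold threshold. Tissue-homing chemokine receptors have the highest median outside the cell cycle (1.56), and quiescence genes and MHC class II genes have the lowest.

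Transcription factors of effector T cells were higher in 11 of 33 cases and lower in none (median 0.53), a count that includes Klrg1 (2.04), a receptor of terminal effector cells placed in this list. Prdm1 was at 12.45, 12.36 and 12.29 in Pers1, 12.66, 12.40 and 12.54 in Pers2 cells, 9.54, 9.40 and 9.76 in PAt and 9.44, 9.34 and 9.43 in Arrested cells. Means were 8.79 in Tnaive and 8.84 in Teff cells, and the difference was 2.97 ± 0.06. Maf, which drives Il10 in several T cell types, was at 13.77 to 13.98 against 11.30 to 11.85 (2.19).

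Ahr (1.82), the aryl hydrocarbon receptor, Nfil3 (1.77), Zbtb32 (1.57), Irf4 (1.43), Batf (1.28), Runx3 (1.18) and Hif1a (1.00) were higher. Tbx21, which codes for the type 1 factor T-bet, was at 8.60 to 9.40 against 7.14 to 7.68 (1.59). Of other lineage factors that did not pass, Gata3 had a difference of 0.53 and Bcl6 of -0.94. Every Pers1 library stood above every Pers2 library for Irf4 and Zbtb32, though Pers1 against Pers2 was not fitted as a contrast. Irf4 was at 13.64, 13.50 and 13.59 in Pers1, with a mean of 12.91 in Pers2, and Zbtb32 was at 10.39 to 10.54 and 9.41 to 9.60.

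Bach2, a repressor that opposes effector differentiation, was at 9.69 to 10.03 in persistent libraries and 11.94 to 12.06 in PAt and Arrested libraries, with no overlap (-2.10 ± 0.05). The 4 pairs gave -2.06, -2.07, -2.12 and -2.13. An antisense gene model overlaps 537 bp of its exons. Of 14 AP-1 and Bach factors, 2 were higher, Batf and Mafg (1.07), and 4 were lower. Jun was at 11.83 to 12.60 against 14.08 to 14.66 (-2.09), Fos was at 13.74 to 14.18 against 15.25 to 15.57 (-1.46), and Fosb was lower too (-1.53). Junb (-0.99) did not overlap between groups but missed the fold threshold, and Jund (-0.13) overlapped.

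**Figure D3:**
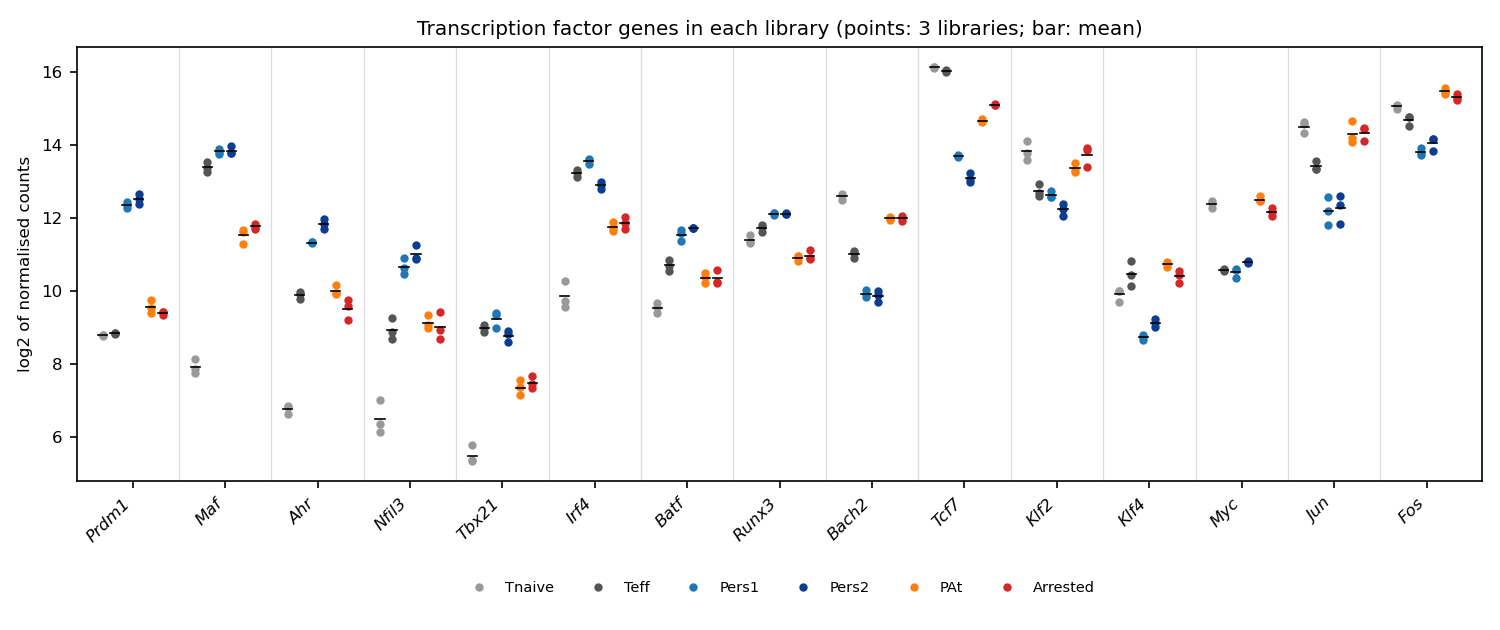
Log2 level (y axis, log2 of normalised counts) of 15 transcription factor genes (x axis) in each of the 18 libraries, coloured by population, with a bar at the population mean. Pers1 and Pers2 libraries are above PAt and Arrested libraries for Prdm1 to Runx3 and below them for Bach2 to Fos.

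Genes of quiescence and the naive state were lower in 11 of 32 cases and higher in none (median -0.78), and 27 of 32 had an adjusted p under 0.05 with a negative sign, against 35.1% of all genes. After Igfbp4 and Bach2 came Ramp1 (-2.01), a neuropeptide receptor component, and Dapl1 (-1.67). Klf4 (-1.64), Txnip (-1.59), which restrains glucose uptake, Tsc22d3 (-1.52), Pik3ip1 (-1.40), an inhibitor of PI3 kinase, and Actn1 (-1.27) were lower. Tcf7, which codes for TCF-1, was at 13.68 to 13.74 in Pers1, a mean of 13.11 in Pers2, 14.64 to 14.72 in PAt and 15.09 to 15.13 in Arrested cells (-1.48), and Tnaive cells were at a mean of 16.14. Lef1 (-0.69), Foxp1 (-0.87) and Foxo1 (-0.24) did not overlap between groups but stayed under the threshold, and Satb1 (-0.01) overlapped. Il7r was at 10.78 to 11.04 in Pers1 and 11.62 to 12.04 in Pers2, and the difference of -0.92 came with overlap.

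The Bcl2 family, which sets survival in lymphocytes, split by member. Bcl2 was at 10.65, 10.66 and 10.78 in Pers1, 10.54, 11.01 and 10.58 in Pers2 cells, 13.62, 13.89 and 13.76 in PAt and 13.42, 13.68 and 13.69 in Arrested cells. It fell by 2.97 on the log2 scale (7.85-fold), and the pairs gave -3.06, -2.90, -3.05 and -2.89. Bcl2a1a (1.11), Bcl2a1b (1.07) and Bcl2a1d (1.07), near-identical copies of the A1 survival gene whose reads may be shared, were higher. Bcl2l1 (0.86), which codes for Bcl-xL, Mcl1 (-0.58) and the death gene Bcl2l11 (0.24) were not called. In all, 3 of 16 members were higher and 1 was lower.

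Of 33 cytokine receptor chains, 5 were higher and 2 lower (median -0.12). Il1rl1, the IL-33 receptor found on tissue Treg, was at 11.06 to 11.28 in Pers1, a mean of 11.79 in Pers2, 10.29 to 10.76 in PAt and 9.44 to 9.56 in Arrested cells (1.46). Il18rap (1.55), Il12rb1 (1.31), Il1r2 (1.28), a decoy receptor, and Il10ra (1.19) followed. Il18r1, which pairs with Il18rap, was -0.11. Ifngr2 (-1.20), a chain of the interferon gamma receptor, and Tgfbr3 (-1.43) were lower, and of the receptor chains shared with IL-2, Il2rb (0.47) and Il2rg (0.34) did not pass. Of 15 STAT and SOCS genes, 1 was lower, Socs1 (-1.44), an inhibitor of cytokine signalling, with a median of 9.24 against 10.74.

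Of 27 helper cytokine and ligand genes, 1 was higher and 2 were lower (median -0.10). These are 3.7% and 7.41% of the list, against 4.74% and 2.77% of all tested genes. Csf1, the macrophage growth factor, was at 11.19 to 11.48 against 9.49 to 10.10 (1.62), and Lta, beside Tnfsf8, was lower (-1.36). Ifng was at 7.55 to 8.02 against 6.91 to 7.56 (0.37), Il4 had a difference of 0.50 and Il2 of -0.13. Il5, Il13, Il17a, Il17f, Il22 and Csf2 were under the filter, with means of at most 2.6. Of 22 TGF-beta pathway genes, 1 was higher, the ligand Tgfb3 (1.55, at 6.60 to 7.57 against 5.26 to 5.86), and 1 was lower, Tgfbr3. Each is 4.55% of the list, near the shares of all tested genes. The lower count was 2 without Arrested replicate 3 and after quantile normalisation. Tgfb3 was at 7.25 to 7.57 in Pers1 and at 6.60 to 6.82 in Pers2.

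None of 34 genes of the T cell receptor complex and proximal signalling was called, with a median of -0.05 and a range from -0.84 (Txk) to 0.99 (Sla). Without the fold threshold, 13 of them (38.2%) passed upward and 15 (44.1%) downward, against 35.9% and 35.1% of all genes. Of 18 early response genes 1 was lower. This was Myc, a driver of growth, at 10.36 to 10.83 against 12.06 to 12.61 (-1.68), and the Teff mean was 10.58. Nr4a1 had a difference of -0.93 without overlap, Egr2 of -0.21 and Cd69 of -0.11. None of 18 NF-kappaB genes was called (-0.74 for Nfkbiz to 0.43 for Nfkbib). Of 14 MAP kinase phosphatase and Sprouty genes, 1 was lower, Spry1 (-1.36), and 2 were lower without Pers1 replicate 3, without Arrested replicate 3 or after quantile normalisation. Of the early response genes, 1 became higher without Pers1 replicate 1, Pers2 replicate 2, PAt replicate 2, Arrested replicate 1 or Arrested replicate 3. Sla was called without Pers1 replicate 2 (1.00), Pers2 replicate 2 (1.01), PAt replicate 1 (1.00) or Arrested replicate 3 (1.01).

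The cytoskeleton and motility list held 12 higher genes of 35 and none lower (median 0.82), and 33 of 35 had an adjusted p under 0.05 upward (94.3%, against 35.9% of all tested genes). S100a6, a calcium-binding protein, was at 12.84 to 13.24 against 9.34 to 10.11 (3.34 ± 0.06), and S100a4 at 12.74 to 13.27 against 9.83 to 10.36 (2.90). S100a4 shares 60.6% of its exon bases with another gene model on the same strand. Anxa2, an annexin that binds S100a10, was at 13.48 to 13.66 in Pers1, 12.37 to 12.48 in Pers2 and 10.30 to 11.16 in PAt and Arrested cells, with a difference of 2.36. Myo1f (2.22), S100a11 (2.09), Emp1 (1.98), Lmna (1.71), S100a10 (1.64), Vim (1.31), Capg (1.28), Anxa1 (1.26) and Tpm4 (1.02) were the others. Emp1 had the same order as Anxa2, with 8.86 to 9.02 in Pers1 and 7.80 to 7.95 in Pers2.

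Of 22 glycolysis genes, 7 were higher and 2 lower (median 0.54). Tpi1 was at 12.28 to 12.36 in the persistent libraries and 10.62 to 10.95 in the others (1.56 ± 0.05). Pgam1 (1.29), Aldoc (1.23), Pgk1 (1.22), Gapdh (1.06), Ldha (1.06) and Slc16a3 (1.30), the lactate exporter, were higher. Eno3 (-1.33) and Pdk1 (-1.08), a kinase that inhibits pyruvate dehydrogenase, were lower, and the glucose transporter Slc2a1 (-0.05) overlapped.

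No gene of the respiratory chain and ATP synthase was called, yet 62 of 67 had an adjusted p under 0.05 upward (92.5% against 35.9% of all genes, median 0.51, at most 0.94 for Uqcr10). The proteasome had 34 of 37 such genes (median 0.52) and the pentose phosphate pathway 6 of 7. Cytosolic ribosomal proteins went the other way, with 57 of 65 downward (87.7% against 35.1%, median -0.34) and none called. Of 40 ribosome biogenesis genes 1 was lower, Myc (median -0.04), and none of 8 Gimap GTPases was called (-0.63 for Gimap3 to 0.72 for Gimap7). With quantile-normalised values the medians were 0.448 for the respiratory chain, 0.454 for the proteasome and -0.259 for ribosomal proteins.

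Of 36 genes of cholesterol and fatty acid synthesis 3 were higher, Idi1 (1.18), Stard4 (1.16) and Cyp51 (1.08), and 1 was lower, the desaturase Scd1 (-1.19). These are 8.33% and 2.78% of the list, against 4.74% and 2.77% of all tested genes. Of 31 amino acid genes, 3 were higher, among them Psat1 (1.45), an enzyme of serine synthesis, and Asns (1.20). The third, Gpt2, was at 1.02, and at 0.97 without Pers2 replicate 1, 0.95 without PAt replicate 2 and 0.98 without Arrested replicate 2. Of 31 endoplasmic reticulum genes, 3 were higher, the cofactor Sdf2l1 (1.43), the stress sensor Atf6 (1.40) and Sec11c (1.09), while the chaperone Hspa5 (0.26) and Xbp1 (0.39) were not. Of 27 cytosolic heat shock genes 2 were lower, Dnajb4 (-1.28) and Hspa1b (-1.13). The call of Hspa1b, whose groups overlapped, was lost without Pers1 replicate 1 (-0.87), Pers2 replicate 1 (-0.81), PAt replicate 3 (-0.83), Arrested replicate 2 (-1.08) or Arrested replicate 3 (-0.93). The count of lower heat shock genes ran from 1 to 3 when 1 library was left out. With a replicate block in the fit it was 3, and Hspa1b had an adjusted p of 7.1e-10 (limma).

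Of 49 interferon-stimulated genes, 6 were lower (12.2%, against 2.77% of all tested genes) and 1 was higher (2.04%, against 4.74%), with a median of -0.24. The count of lower genes ran from 4 to 6 when 1 library was left out. An adjusted p under 0.05 downward was found for 28 (57.1%, against 35.1% of all tested genes). Ly6c1 (-1.96) was at 8.74 to 9.16 in Pers1, 8.15 to 8.33 in Pers2, 9.87 to 10.30 in PAt and 10.81 to 11.29 in Arrested cells, while its relative Ly6a (2.19) was at 12.98 to 13.35 against 10.64 to 11.51. Usp18 (-1.33), a deconjugase of ISG15, Oasl2 (-1.43), Oasl1 (-1.09), Tgtp1 (-1.18) and Gbp2b (-1.04) were the other lower genes, and reads of the Ly6, Oasl and Tgtp families may be split between relatives. Irf7 had a difference of -0.58.

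These genes also differed by replicate number, a pattern examined after values were seen. Oasl2 was at 7.70, 8.27 and 8.89 in Pers1, 7.22, 7.59 and 8.06 in Pers2 cells, 9.16, 9.25 and 9.54 in PAt and 9.02, 9.43 and 9.92 in Arrested cells, and the library numbered 3 was the highest in each. In all 6 populations, the library numbered 3 lay above its population's mean for 43 to 47 of the 49 genes and the library numbered 1 for 3 to 5. With a replicate block in the fit, the same numbers were called (6 lower and 1 higher), and Mx1, at 0.40, passed from an adjusted p of 0.0929 to 3.47e-06 (limma) without reaching the fold threshold.

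Of 11 genes of MHC class II presentation, 5 were lower and none was higher (median -0.99). H2-Aa was at 9.02 to 9.84 against 10.40 to 11.15 (-1.31 ± 0.11), and H2-Ab1 (-1.24), H2-Eb1 (-1.21) and H2-Ob (-1.10) were lower, while Cd74, the invariant chain, was not (-0.13). Markers of B cells, which carry class II, moved alongside. Of 12 B cell markers, 4 were lower, among them Fcer2a (-1.23), Cd79a (-1.14) and Ms4a1 (-1.11), and none was higher. Their summed back-transformed level was 3157 to 4050 in persistent libraries, 4880 to 7030 in PAt and Arrested libraries, 1634 to 2207 in Tnaive and 9989 to 13910 in Teff libraries, and none of the defining markers was at 0. Their part in the class II result was not tested. Cd8a (-1.16) was lower in the same direction, and the 2 CD8 markers summed to 803.3 to 1163 against 1364 to 1666. Of 16 genes of class I presentation, 1 was lower, H2-Q4 (-1.04).

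Summed markers of plasmacytoid dendritic, myeloid and NK cells overlapped between the groups, and those of gamma-delta T cells did not. Plasmacytoid dendritic cell markers summed to 7521 to 8378 in persistent and 7049 to 8358 in PAt and Arrested libraries, and myeloid markers to 1042 to 1588 and 998 to 1323. Of the 13 tested myeloid markers, 1 was higher, Itgam. Of the dendritic cell markers, Runx2 (1.88) was higher and Ccr9 lower. NK cell markers summed to 232.9 to 286.4 against 284.7 to 332.6, and gamma-delta T cell markers to 123.9 to 155.5 against 192.2 to 236.6, though none of the 3 gamma-delta markers was called. Their part in the results was not tested.

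The Treg identity list of 28 genes had 4 higher members, Itgae, Ctla4, Ikzf3 and Capg, and 1 lower (median 0.04). Ikzf3, an Ikaros factor, was at 14.28 to 14.42 against 12.88 to 13.03 (1.35). Gpr83, a receptor characteristic of Treg, was lower (-1.37), at 9.34 to 9.75 in persistent libraries, 11.23 to 11.41 in PAt and 10.48 to 10.57 in Arrested cells. Ikzf4 (-0.93), which codes for Eos, did not overlap and did not pass.

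Several of the strongest differences lay outside the lists. Nos1, the neuronal nitric oxide synthase, was at 8.65, 8.68 and 8.48 in Pers1, 8.15, 7.77 and 8.05 in Pers2 cells, and 4.44 to 4.95 in PAt and Arrested libraries (3.55 ± 0.11). Tnaive cells had a mean of 4.71. Glrx, a glutaredoxin, was at 13.37 to 13.57 against 10.30 to 10.61 (3.03 ± 0.04). Fam20a (2.88), Plxdc1 (2.77) and Cysltr1 (2.76), a receptor for cysteinyl leukotrienes, were higher, with no overlap in any. The Riken gene 1500009L16Rik had a difference of 3.13, and each of its persistent libraries lay above each PAt and Arrested library.

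On the lower side, Sorcs2, a sorting receptor of the VPS10 family, was at 5.50 to 6.05 in persistent libraries, with a mean of 5.74 in Teff cells, and at 9.48 to 9.93 in the others (-3.94 ± 0.10). Tspan9 (-3.01), a tetraspanin, was at 8.46 to 8.69 in PAt, 9.26 to 9.48 in Arrested cells and at a mean of 11.60 in Tnaive cells. Treml2 (-2.66), Pou6f1 (-2.67), Tdrp (-2.59), Amigo2 (-2.40), Cpne7 (-2.40) and Peg13 (-2.34), an imprinted noncoding RNA, were lower. Khdc1a (-2.54) was at 6.97 to 7.53 in PAt and Arrested libraries and at 4.44 to 4.97 in persistent ones, and both Timer-negative populations were low (means 4.48 and 4.26). Gata1, a factor known from red cell precursors, was at 9.87 to 10.39 in PAt and Arrested libraries and at 7.42 to 7.85 in persistent libraries (-2.48). The sole erythroid marker in the table, Alas2, had a difference of -0.01.

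**Figure D4:**
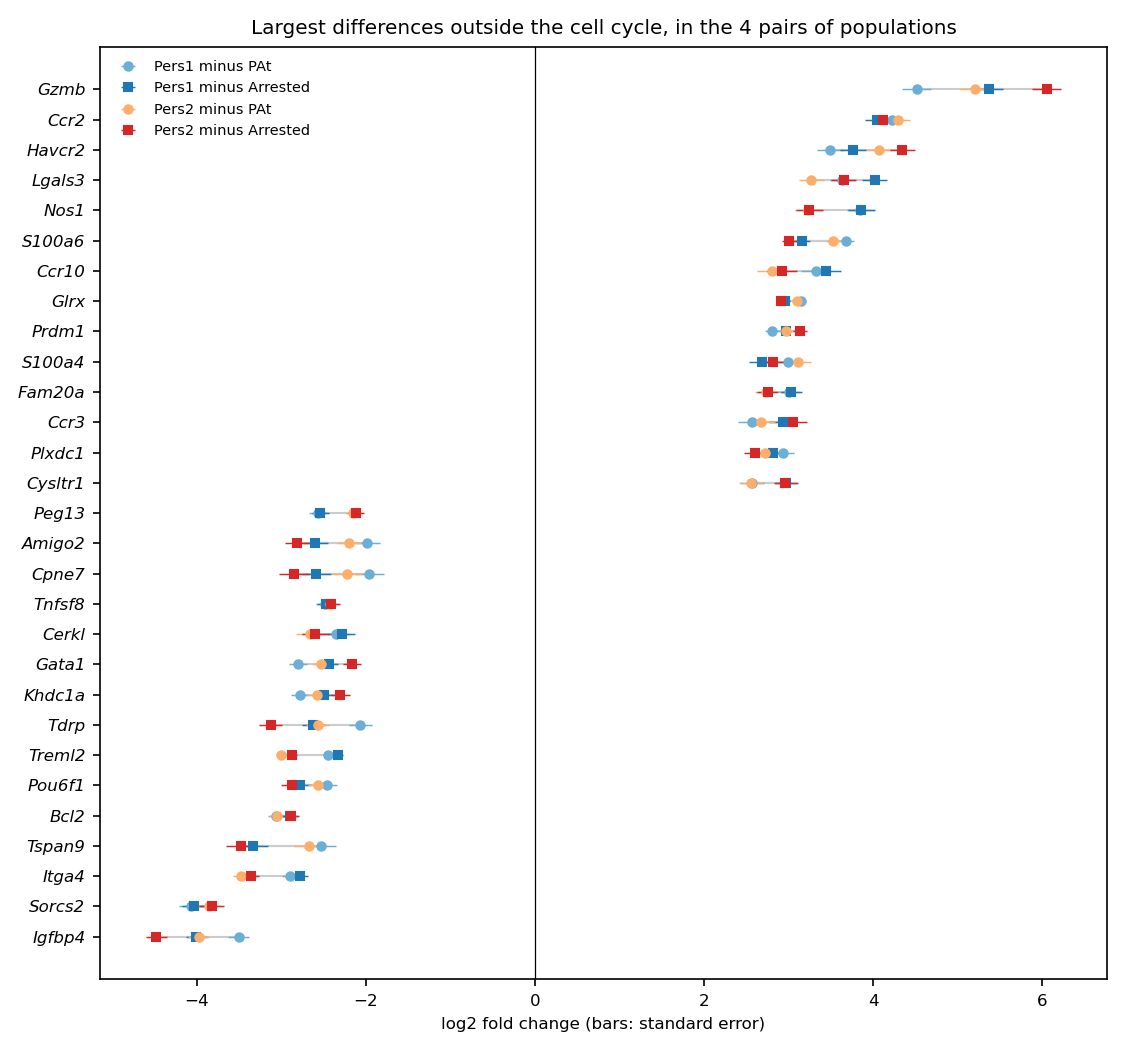
Log2 fold change (x axis) of 29 named genes with the largest differences outside the cell cycle, predicted and Riken genes left out (y axis) in each of the 4 pairs of a persistent population with PAt or Arrested cells, with standard errors from limma as bars. Every gene lies on 1 side of 0 in all 4 pairs. Gzmb runs from 4.51 for Pers1 against PAt to 6.05 for Pers2 against Arrested cells.

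The 4 pairs share libraries and are given side by side. Pers1 against PAt gave 609 higher (4.62%) and 502 lower genes (3.81%), 8.42% in all, Pers1 against Arrested 629 (4.77%) and 398 (3.02%), 7.79% in all, and Pers2 against PAt 641 (4.86%) and 376 (2.85%), 7.71% in all. Pers2 against Arrested gave 687 (5.21%) and 346 (2.62%), 7.83% in all. Ccr2 differed by 4.22, 4.04, 4.30 and 4.12 in these pairs and Prdm1 by 2.80, 2.97, 2.97 and 3.13, so that each pair carried the change. Fgl2 was less even, with 0.99, 2.06, 1.87 and 2.95, and Anxa2 had 3.18, 2.67, 2.06 and 1.55. Fgl2 was highest in Pers2 (11.04 to 11.27) and lowest in Arrested cells (7.97 to 8.34).

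Pers2 and PAt cells are both Red-high, whereas Pers1 cells are Red-low and Arrested cells Red-intermediate. The differences Pers2 minus PAt and Pers1 minus Arrested, 2 contrasts that share no library, were set against each other, and their difference was tested. The first contrast lies within Red-high cells, while in the second the Blue and Red gates both differ and cannot be told apart. The difference of the 2 contrasts was called for 8 of 13190 genes (0.0607%), 4 in each direction (0.0303% each). Without the fold threshold, 101 genes had an adjusted p under 0.05 (limma), and 1670 had an unadjusted p under 0.05. Slc7a10, an amino acid transporter, was at a mean of 7.51 in Pers2 and at 6.22 to 6.71 in PAt (1.02), but at 5.88 to 6.22 in Pers1 and 6.52 to 6.77 in Arrested cells (-0.56). The difference of the differences was 1.59 ± 0.20 (adjusted p = 0.000282, limma). Slc7a10 shares 237 bp of exon with Lrp3 on the opposite strand.

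Mmp9, a matrix metalloprotease, was higher in both, by 3.09 in Pers2 over PAt and by 1.68 in Pers1 over Arrested cells. Ggt1 went the other way, with 7.73 to 7.83 in Pers1 against 6.42 to 6.63 in Arrested cells and no Red-high counterpart (6.17 to 6.46 in Pers2 and 6.22 to 6.62 in PAt). Stra6, with a difference of differences of -1.11, stood 1.62 below PAt in Pers2 and 0.51 below Arrested cells in Pers1. Penk, which codes for proenkephalin, was at 10.47 to 10.69 in Pers2, 9.97 to 10.27 in PAt, 8.81 to 8.97 in Pers1 and 9.47 to 9.60 in Arrested cells, so that its pooled difference was -0.10.

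**Figure D5:**
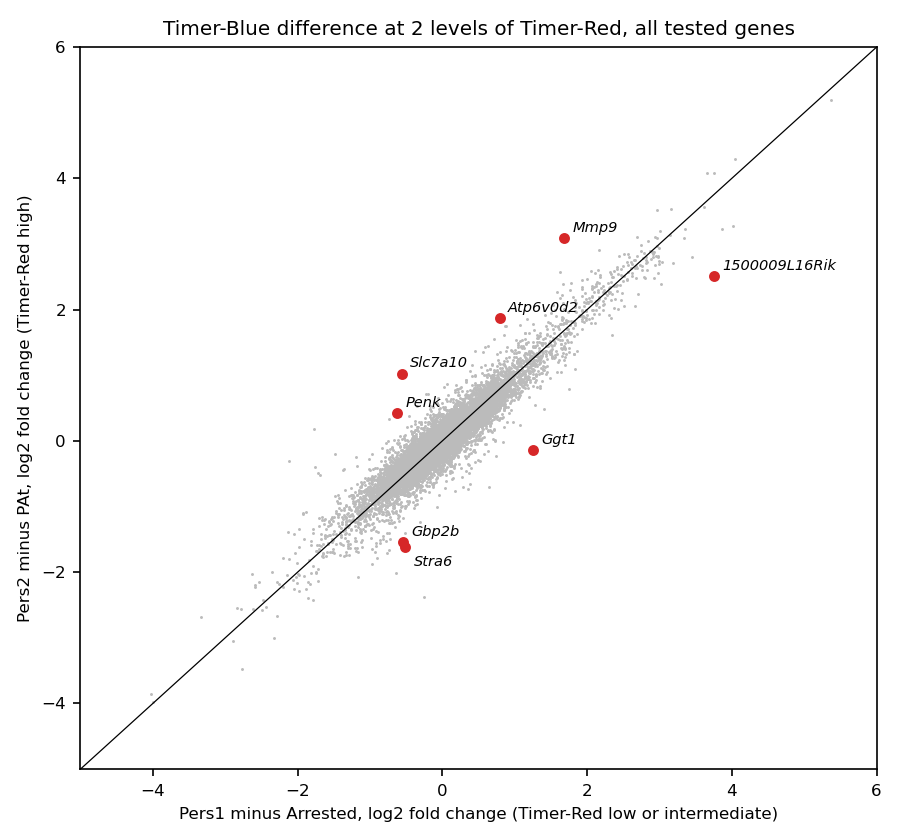
Log2 fold change of Pers2 minus PAt cells (y axis, Timer-Red high) against that of Pers1 minus Arrested cells (x axis, Timer-Red low or intermediate) for each tested gene, with the line of equality. The 8 labelled red points are the genes called for the difference of these differences, from -1.40 for Ggt1 to 1.59 for Slc7a10. A call needed an adjusted p under 0.05 (limma) and an absolute value over 1.

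The cell cycle moved beside all of these changes. Of 208 listed genes 173 were higher and none was lower (median 2.02). Mki67, the proliferation antigen, was at 14.41 to 14.62 in persistent libraries and 11.46 to 11.76 in PAt and Arrested libraries (2.88), with 12.62 as the mean of Teff cells. Cell cycle transcripts thus moved with the groups throughout, and their part in the other differences was not tested.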

How the data were processed

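RNA of sorted CD4+ T cells (100K to 250K cells per library) was sequenced as stranded paired-end 100-base reads. Per the labels and methods, the authors processed reads with CASAVA 1.8.2, FastQC 0.11.2, TopHat2 2.0.9 (mm10) and DESeq2, and deposited log2-transformed normalised counts per gene. The counter, annotation and strand setting are not given in the sources used here. Since no counts were analysed, the table was tested by limma 3.58.1 (R 4.3.3) with a mean-variance trend and 1 mean per population over 18 libraries, on 13190 of 15402 genes with a mean of at least 3. The filter left out 2212 genes and 18 members of the lists. Depth per library, and so the counting error, is unknown.

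Called genes passed an adjusted p of 0.05 and a log2 fold change of 1. The fit was tested on simulated data with the same 13190 genes for the main comparison, and it recovered 100 of 100 genes changed by 1.5 and 100 of 100 changed by 2 on the log2 scale, with 0 false calls. Errors were drawn as independent and normal, all other genes were left unchanged, and both changes lay above the fold threshold. The correlation of same-numbered libraries was left out. The simulation thus checks that the fit runs correctly and gives no error rate for the real calls. The members and lists were chosen with earlier results of these data known. Genes were named if among the 15 highest or 15 lowest called genes without overlap, leaving out cell cycle genes, predicted and Riken genes, date symbols and cell type markers, if among up to 4 called list members in each direction (or the 2 largest where none was called), if named by the study, or if among the 5 largest called differences between Pers2 minus PAt and Pers1 minus Arrested. Other list members are named with their values, and genes outside these, such as Cntnap1, Plekhh3, Xcr1 and Ccr1, were chosen after their values were seen. Values of some single genes under the rule are not reported here.

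Replicate numbers are shared between populations, and the series design says that populations were sorted from the same mice, so same-numbered libraries were taken to share a pool. Deviations from population means correlated at a median of 0.166 (-0.206 to 0.436) over 45 pairs of same-numbered libraries, with 42 above 0, against -0.0642 over 90 other pairs. The study names no block, so the fit had none, and the block was an alternative, beside other filters, the 12 Timer-positive libraries alone, no trend, quantile normalisation, a test against the fold threshold and leaving out each library. Gene positions are from GENCODE vM21 on GRCm38, and promoters from RefSeq on GRCm38.p6. With promoters of chromosome 18 left out, they covered 9938 of 13189 tested symbols. Symbols turned into dates by a spreadsheet were not named.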

Additional observations from a re-analysis of the deposited data

Results flagged for a closer look

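Within the 6 persistent libraries or the 6 PAt and Arrested libraries, 1 library stood apart from the other 5 for 6 of 316 gene and group combinations, by the gap to its neighbour over the whole range. For 6 values from a single normal population, chance marks about 1 in 20 groups. Each group here pools libraries of different populations, so that rate need not hold. PAt replicate 3 was low for Ikzf3 (12.88, nearest 12.98, gap share 0.664). Pers2 replicate 3 was low for Ccr7 (11.21, nearest 11.40, gap share 0.714) and high for Il18rap (11.31, nearest 11.11, gap share 0.672). Pers1 replicate 2 was low for Itga2b (5.904, nearest 6.076, gap share 0.664). Arrested replicate 2 was low for Bcl2a1b (10.22, nearest 10.51, gap share 0.654) and high for Rps27 (7.756, nearest 7.338, gap share 0.757).

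The difference between Pers2 and PAt, both Red-high, was set against that between Pers1 (Red-low) and Arrested cells (Red-intermediate) in limma. The contrast of both was called for 8 genes, and 101 genes had an adjusted p under 0.05 without the fold threshold. The difference of the differences was 1.588 for Slc7a10, 1.407 for Mmp9, 1.079 for Atp6v0d2 and 1.047 for Penk, and -1.398 for Ggt1, -1.253 for 1500009L16Rik, -1.108 for Stra6 and -1.001 for Gbp2b. The call of 1500009L16Rik was lost without Pers1 replicate 3, Pers2 replicate 1 or 2, PAt replicate 1 or 2, or Arrested replicate 2 (adjusted p 0.0514 to 0.0729, limma).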

How the results depend on the processing

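The total of 990 called genes ranged from 973 to 1034 (606 to 644 higher, 356 to 398 lower) when 1 library was left out. It was 990 without a filter, 975 with a mean of at least 5, 989 with the 12 Timer-positive libraries, 988 without a trend and 1012 after quantile normalisation, where the share of higher calls was 59.2% against 63.1%. A test against the fold threshold itself (treat) called 615 genes, 436 higher and 179 lower, since it asks for evidence beyond that threshold. With the replicate block, which the shared pairing allows, 992 genes were called (625 higher, 367 lower), and it changed the call of none of the 158 named results. Of these, treat ended the call of 36, no trend that of Hspa1b and quantile normalisation that of Stra6 (-0.99), and no direction of a called value reversed. The medians of the Treg identity, TNF receptor and erythroid lists changed sign after quantile normalisation. Genes with few reads are limited by the transform and by unknown depth.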
